A study of Mus musculus with 18 samples.

Results

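Prox1, Rfx3, Trpc6, C1ql2, Dsp and Tdo2 are 6 genes used as markers of dentate granule neurons, and were followed here in hippocampal RNA of mice fed a cannabis extract or vehicle while young. The array names 19057 genes, 5 of these among them. The 6 genes were chosen with earlier results of these data known. Counts of them set beside all probes below are therefore descriptions, not tests. Every probe that the platform annotation assigns to one of these symbols was taken. This gave 9 of the 45281 probes on the array, for 5 of the 6 genes. No probe carries the symbol Dsp, so that gene was not analysed here. For 4 of the 5 genes (Prox1, Rfx3, Trpc6 and C1ql2) 1 probe each lay above the background of the arrays on 18 of 18 arrays. Tdo2 had a single probe, above background on 0 of 18.

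Granule neurons are the principal excitatory cells of the dentate gyrus. They receive the main cortical input to the hippocampus and pass it by their mossy fibre axons to CA3 pyramidal cells and hilar mossy cells. In rodents new granule neurons go on being added after birth, so that a young dentate gyrus holds mature cells beside immature ones. Prox1 encodes the homeobox transcription factor that gives these cells their identity in mice and maintains it, and Rfx3 a winged-helix transcription factor best known for switching on genes of cilia through the X-box. C1ql2 encodes a secreted C1q-like protein which, in mice, mossy fibres release to gather kainate receptors at their synapses. Trpc6 encodes a cation channel opened by diacylglycerol. Tdo2 encodes tryptophan 2,3-dioxygenase, which starts the kynurenine pathway, and Dsp desmoplakin, which anchors desmosomes to intermediate filaments. Prox1 is not exclusive to granule neurons, since some cortical and hippocampal interneurons also make it.

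All 18 samples are hippocampus of C57Bl6/J mice. Pups were hand-fed once a day at postnatal days 14 to 28, for 14 days, with the extract at 20 mg/kg in a sweetened milk and olive oil emulsion, or with that emulsion alone. The groups killed at P28, 70 to 80 min after a feed began, hold 4 vehicle and 4 cannabis arrays. The groups killed as adults, labelled P56, hold 5 vehicle and 5 cannabis arrays. Both adult groups had undergone a battery of behavioural tests, with phencyclidine given in one of them, followed by a washout, so age and that history cannot be told apart. The labels name neither the composition of the extract nor the sex of the animals, and do not say that each array is a separate mouse. The p-values below rest on the spread between arrays, part of which may be technical. RNA was taken from whole dissected hippocampus, in which a lower level of a granule neuron gene cannot be told apart between fewer such cells and less RNA per cell.

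Values are log2 intensities as deposited, with the same distribution on every array (median 6.86). They still contain the background signal, which compresses differences, most of all for dim probes. A probe was counted as above background past 6.98, and was tested if it passed this on at least 4 arrays, which 18249 probes did. Arrays of a group correlated at 0.971 to 0.994. The number of arrays limits the precision. Within the groups, the arrays numbered 4 and 5 stood apart from those numbered 1 to 3 in 4311 probes (23.6%) by limma, and no label gives a batch for them. Rfx3 was higher in arrays 4 and 5 by 0.35 (adjusted p = 0.000358) and Trpc6 by 0.39 (adjusted p = 0.000264), whereas Prox1 differed by -0.06 (adjusted p = 0.685) and C1ql2 by 0.03 (adjusted p = 0.795). The P28 groups hold 1 such array each and the adult groups 2 each, so values with this division as a block, or within its parts, stand beside the results it touches. CA1 markers had 5 of 7 listed genes measured, and CA2 and CA3 markers 7 of 9, at mean levels of 9.73 to 9.99 and 9.51 to 9.54 across the groups.

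The 6 genes lie on 5 chromosomes of the mouse genome (RefSeq annotation, GRCm38.p6). Prox1 is at chr1:190118035-190170827 on the minus strand, and C1ql2 at chr1:120340582-120343174 on the plus strand of the same chromosome. Rfx3 is at chr19:27761721-28014669 (minus), Trpc6 at chr9:8543867-8680752 (plus), Tdo2 at chr3:81958412-81975728 (minus) and Dsp at chr13:38151294-38198577 (plus). The annotation used does not place the probes within these genes. RefSeq promoter windows, 250 bases before to 50 after a transcript start, were given for each of the 6 genes, with 2 starts for Prox1. The stretches before the start are printed for the 4 measured genes. Of these, 3 (Rfx3, C1ql2 and Trpc6) had their highest group means in the adult cannabis group, and Prox1 in the P28 vehicle group. None of the 4 passed by limma between adult cannabis and adult vehicle mice. Capitals mark an E box, CANNTG, the class of site bound by NeuroD and other bHLH factors. For Rfx3 and Trpc6 the windows belong to transcript starts that lie inside the gene's outermost annotated bounds.
Prox1: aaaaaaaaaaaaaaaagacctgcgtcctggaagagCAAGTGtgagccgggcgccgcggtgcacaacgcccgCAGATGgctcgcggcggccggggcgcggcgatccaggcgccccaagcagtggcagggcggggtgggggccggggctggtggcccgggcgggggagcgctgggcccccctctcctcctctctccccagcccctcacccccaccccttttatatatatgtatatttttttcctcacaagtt
Rfx3: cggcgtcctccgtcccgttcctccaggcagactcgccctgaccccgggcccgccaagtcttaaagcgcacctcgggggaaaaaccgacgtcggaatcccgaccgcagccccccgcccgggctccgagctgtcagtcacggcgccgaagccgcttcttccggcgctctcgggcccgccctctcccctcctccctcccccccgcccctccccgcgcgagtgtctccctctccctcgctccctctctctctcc
C1ql2: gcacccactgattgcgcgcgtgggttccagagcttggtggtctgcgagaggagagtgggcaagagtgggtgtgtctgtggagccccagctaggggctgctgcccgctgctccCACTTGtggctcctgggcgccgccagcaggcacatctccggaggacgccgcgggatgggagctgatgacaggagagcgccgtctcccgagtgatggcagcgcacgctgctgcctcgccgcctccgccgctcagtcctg
Trpc6: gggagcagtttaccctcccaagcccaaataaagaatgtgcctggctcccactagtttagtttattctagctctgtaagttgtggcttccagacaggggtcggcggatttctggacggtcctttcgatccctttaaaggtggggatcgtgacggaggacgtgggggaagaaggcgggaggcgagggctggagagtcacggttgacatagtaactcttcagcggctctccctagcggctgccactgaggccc
The Prox1 window (chr1:190170828-190171077, minus strand) holds 2 E boxes, CAAGTG at -215 to -210 and CAGATG, the form NeuroD prefers, at -179 to -174 from the start. The C1ql2 window (chr1:120340332-120340581, plus strand) holds 1, CACTTG at -138 to -133. The windows of Rfx3 (chr19:28011167-28011416, minus strand) and Trpc6 (chr9:8543892-8544141, plus strand) hold none before or after the start. Searched on both strands over the same 300-base windows of 32851 mouse promoters, CANNTG was in 72.3% and CAGATG, which is one of its forms, in 17.2%. The second Prox1 start had none of the motifs searched. GTTGCC, the core of the X-box that RFX factors read, was in 1 window, that of Rfx3 itself, 32 to 37 bases after the start, and in 12.5% of all promoters. It is shown in capitals with its flanks (chr19:28011124-28011141, minus strand), because RFX factors are the family that Rfx3 belongs to.
Rfx3, positions 26 to 43: gcaaccGTTGCCttgtga
Neither the EGR site (GCGTGGGCG or GCGGGGGCG, in 3.47% of promoters) nor the cyclic AMP response element TGACGTCA (in 1.79%) was in any of the 7 windows. A match describes these letters only, and no binding was measured here.

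**Figure D1:**
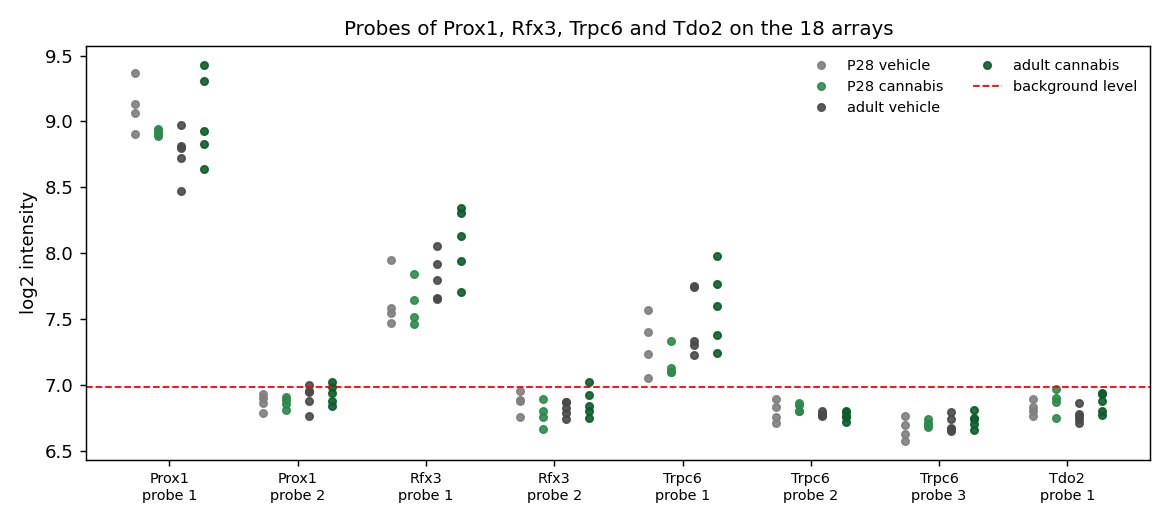
Log2 intensity (vertical axis) of each probe of Prox1, Rfx3, Trpc6 and Tdo2 on the 18 arrays, by group, 1 point an array, with the background level of 6.98 as a dashed line. The first probe of Prox1, Rfx3 and Trpc6 lies above the line on 18 of 18 arrays, and each of the other 5 probes passes it on 3 arrays or fewer.

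The probes of a gene did not all rise above background. The second Prox1 probe exceeded the background level on 3 of 18 arrays, the second Rfx3 probe on 1, and the 2 other Trpc6 probes on 0. C1ql2 has 1 probe. After subtracting group means, the 2 Prox1 probes moved together over the 18 arrays (r = 0.683) and the 2 Rfx3 probes did not (r = -0.388), as a description of probes in which 1 of each pair lies at background. The platform annotation assigns the brighter Rfx3 probe to a cDNA sequence and the one at background to the RefSeq transcript. Whether the Rfx3 values follow that transcript was not tested. Results below are those of the brighter probe.

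Prox1 was at 9.37, 9.07, 9.13 and 8.90 in P28 vehicle mice and at 8.89, 8.93, 8.94 and 8.91 in P28 cannabis mice. In adults it was at 8.80, 8.97, 8.72, 8.82 and 8.47 with vehicle, and at 8.64, 9.31, 8.93, 9.43 and 8.83 with cannabis. The P28 cannabis arrays lay close together, at the lower end of the P28 vehicle arrays, and the adult cannabis arrays were the most spread, 2 of them above every adult vehicle array. The group means ran from P28 vehicle (9.12 ± 0.19, SD, n = 4) through adult cannabis (9.03 ± 0.33, n = 5) and P28 cannabis (8.92 ± 0.02, n = 4) to adult vehicle (8.76 ± 0.18, n = 5). The groups overlap with their neighbours in this order.

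Rfx3 was at 7.47, 7.55, 7.58 and 7.94 in P28 vehicle mice and at 7.51, 7.64, 7.46 and 7.84 in P28 cannabis mice. It was at 7.80, 7.65, 7.66, 8.05 and 7.92 in adult vehicle mice and at 7.71, 8.13, 7.94, 8.35 and 8.31 in adult cannabis mice. In each group the arrays numbered 4 and 5 were the highest. From highest to lowest the group means were adult cannabis (8.09 ± 0.27, SD, n = 5), adult vehicle (7.81 ± 0.17, n = 5), P28 vehicle (7.64 ± 0.21, n = 4) and P28 cannabis (7.61 ± 0.17, n = 4), and each group overlaps the next.

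C1ql2 was at 11.67, 11.28, 11.44 and 11.55 in P28 vehicle mice and at 11.33, 11.37, 11.30 and 11.18 in P28 cannabis mice. It was at 12.09, 11.67, 11.68, 12.03 and 11.53 in adult vehicle mice and at 11.67, 11.88, 11.81, 11.98 and 11.96 in adult cannabis mice. Every adult cannabis array was above every P28 cannabis array, whereas the vehicle groups overlap between the ages. Group means were 11.86 ± 0.13 (SD, n = 5) in adult cannabis, 11.80 ± 0.24 (n = 5) in adult vehicle, 11.48 ± 0.16 (n = 4) in P28 vehicle and 11.30 ± 0.08 (n = 4) in P28 cannabis mice. Neighbours in this order overlap.

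Trpc6 was at 7.05, 7.40, 7.23 and 7.57 in P28 vehicle mice and at 7.10, 7.10, 7.12 and 7.33 in P28 cannabis mice. It was at 7.33, 7.23, 7.30, 7.75 and 7.75 in adult vehicle mice and at 7.60, 7.24, 7.38, 7.77 and 7.97 in adult cannabis mice. Here too arrays 4 and 5 held the highest value of each group. Means were 7.59 ± 0.29 (SD, n = 5) in adult cannabis, 7.47 ± 0.26 (n = 5) in adult vehicle, 7.31 ± 0.22 (n = 4) in P28 vehicle and 7.16 ± 0.11 (n = 4) in P28 cannabis mice, with overlap between neighbours.

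Tdo2 lay at 6.71 to 6.96 on the 18 arrays, all under the background level, so its probe gives no order of the groups. Its means were 6.82 ± 0.06 and 6.87 ± 0.09 (SD, n = 4 each) in P28 vehicle and cannabis mice, and 6.77 ± 0.06 and 6.86 ± 0.07 (n = 5 each) in the adults. The probe was not tested.

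**Figure D2:**
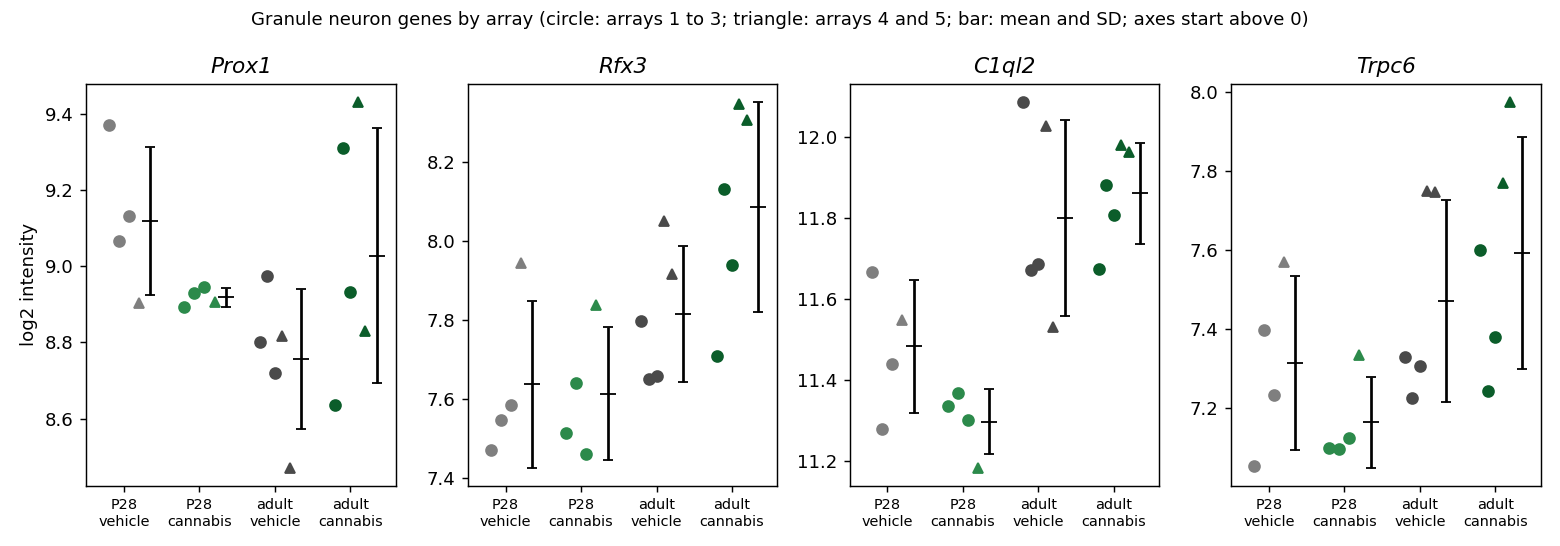
Log2 intensity (vertical axes, not starting at 0) of Prox1, Rfx3, C1ql2 and Trpc6 by group, 1 point an array, circles for arrays 1 to 3 and triangles for arrays 4 and 5, with the mean and SD of each group. C1ql2 separates adult from P28 cannabis mice without overlap, and the triangles of Rfx3 and Trpc6 lie high within their groups.

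The first comparison asks how the extract bore on these genes at the end of dosing, at P28. None of the 4 measured genes differed by limma, where 0 of 18249 probes passed at an adjusted p of 0.05 (0%). C1ql2 lay lower with cannabis by -0.19 ± 0.11 (log2 difference, SE, 95% interval -0.42 to 0.05, unadjusted p = 0.113) and Prox1 by -0.20 ± 0.14 (-0.50 to 0.10, unadjusted p = 0.182). Trpc6 differed by -0.15 ± 0.15 and Rfx3 by -0.02 ± 0.14, and the adjusted p was 0.9999 for each of the 4. Their median was -0.17, with 0 of 4 above 0 (49.6% of all probes were), beside a median of -0.00055 over all probes tested. No member had an unadjusted p under 0.05, which 1.79% of all probes had. Leaving out P28 vehicle array 4 put Rfx3 at 0.08, and in array 4 alone, 1 array against 1, Prox1 differed by 0.003. Trpc6 ranged from -0.24 without P28 vehicle array 1 to -0.06 without P28 vehicle array 4, and was at -0.30 with a normexp background correction. Choroid plexus markers, of which 10 of 13 were measured, were at 7.56 to 9.33 (mean over the list, by array) in P28 cannabis mice and at 7.16 to 8.46 in P28 vehicle mice, and lay higher with cannabis in 10 of 10 genes (median 0.76, 0 called). Immature neuron markers lay lower with cannabis in 7 of 8 genes measured (median -0.14, level 8.29 to 8.37 against 8.35 to 8.54), and microglial markers in 5 of 6 (median -0.15, level 8.14 to 8.21 against 8.24 to 8.40), with 0 called in either list. The part of these 3 lists in the values of the granule neuron genes was not tested.

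The second comparison asks how cannabis and vehicle mice differed as adults, weeks after dosing ended and after the behavioural tests and phencyclidine. Prox1 and Rfx3 both lay higher in adult cannabis mice by 0.27 ± 0.13 and 0.27 ± 0.12 (log2 difference, SE), or 1.21-fold each, but neither passed by limma (unadjusted p = 0.0495 and 0.0391, adjusted p = 0.9998 for both). Their intervals were 0.0006 to 0.54 and 0.02 to 0.53. Trpc6 differed by 0.12 ± 0.14 (-0.17 to 0.41) and C1ql2 by 0.06 ± 0.10 (-0.15 to 0.27). All 4 genes lay above 0, with a median of 0.20, beside a median of 0.00148 and 50.9% above 0 among all probes. Over all probes 0 of 18249 passed (0%), and 3.55% had an unadjusted p under 0.05, against 2 of the 4 genes. With arrays 4 and 5 as a block Rfx3 kept its difference of 0.27 with a smaller error (0.07, unadjusted p = 0.000782, adjusted p = 0.668), and Prox1 did not move (adjusted p = 0.923). Within arrays 1 to 3 the differences were 0.13 for Prox1 and 0.23 for Rfx3, and within arrays 4 and 5 they were 0.49 and 0.34. Those of Trpc6 were 0.12 in both parts, and those of C1ql2 -0.03 and 0.19. Leaving out 1 array in turn moved Prox1 between 0.17 and 0.37, Rfx3 between 0.21 and 0.37, Trpc6 between 0.03 (without adult cannabis array 5) and 0.21 (without adult cannabis array 2), and C1ql2 between -0.007 (without adult vehicle array 5) and 0.13 (without adult vehicle array 1). The normexp correction put Trpc6 at 0.21.

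Other cell markers stood as follows in the adult comparison. Interneuron markers, 8 of 10 measured, lay lower with cannabis in 8 of 8 genes (median -0.15, list level 10.02 to 10.37 by array against 10.28 to 10.47 with vehicle). Immature neuron markers, 8 of 10 measured, lay higher in 7 of 8 (median 0.20, level 7.81 to 8.46 against 7.79 to 7.98). Oligodendrocyte markers lay higher in 7 of 7 measured (median 0.25, level 10.72 to 11.53 against 10.42 to 11.19), and CA1 pyramidal markers in 5 of 5 (median 0.22, level 9.60 to 10.25 against 9.48 to 10.02). Ependymal markers lay higher in 1 of 4 measured (median -0.225, level 7.06 to 7.87 against 7.26 to 7.81). The remaining lists of other cell types and regions had medians from -0.06 (choroid plexus) to 0.06 (endothelial). No gene of these lists was called, and their part in the Prox1 and Rfx3 values was not tested.

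The third comparison asks whether the cannabis difference itself changed with age. The change was 0.47 ± 0.19 for Prox1 (log2, adult minus P28, SE, interval 0.07 to 0.88), from lower at P28 to higher in adults, with an unadjusted p of 0.0254 that did not survive adjustment by limma (0.9996). It was 0.30 ± 0.18 for Rfx3, 0.27 ± 0.21 for Trpc6 and 0.25 ± 0.15 for C1ql2. All 4 lay above 0 (50.5% of all probes did), with a median of 0.28 beside 0.00114 over all probes. No probe passed (0% of 18249), and 2.91% had an unadjusted p under 0.05. With arrays 4 and 5 as a block the unadjusted p was 0.0090 for Rfx3, 0.0232 for Trpc6 and 0.0252 for Prox1, with an adjusted p of 0.9963 for each. Prox1 changed by 0.40 within arrays 1 to 3 and by 0.48 within arrays 4 and 5. Immature neuron markers lay above 0 in 7 of 8 genes (median 0.28) and CA1 markers in 5 of 5 (0.27). So did oligodendrocyte markers in 7 of 7 (0.21) and microglial markers in 6 of 6 (0.16). Choroid plexus markers did in 0 of 10 (-0.78) and interneuron markers in 1 of 8 (-0.08). Of 11 other genes enriched in granule neurons 10 lay above 0 (0.09). No list gene was called, and the part of these lists was not tested.

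Between P28 and adulthood in vehicle mice, Prox1 was the 1 gene of the 4 that lay lower in adults. It differed by -0.36 ± 0.14 (log2 difference, SE, interval -0.65 to -0.07, unadjusted p = 0.0165), and C1ql2 lay higher by 0.32 ± 0.11 (0.09 to 0.54, unadjusted p = 0.00793). Neither passed by limma (adjusted p = 0.229 and 0.165), in a comparison where 195 probes did (1.07%) and 13.5% had an unadjusted p under 0.05. Rfx3 differed by 0.18 ± 0.13 and Trpc6 by 0.16 ± 0.15. Of the 4 genes 3 lay above 0 (52.1% of all probes did), and their median was 0.17, beside 0.0057 over all probes. With arrays 4 and 5 as a block, Prox1 stayed at -0.35 (adjusted p = 0.190) and C1ql2 at 0.31 (adjusted p = 0.133).

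In cannabis mice the 4 genes lay higher in adults than at P28, and C1ql2 came closest to the threshold. It differed by 0.56 ± 0.11 (log2 difference, SE, interval 0.34 to 0.79), or 1.48-fold, with no overlap between the 5 adult and 4 P28 arrays, and an adjusted p of 0.0550 by limma (unadjusted 4.79e-05). Over all probes 1.25% lay higher without overlap, and 5 probes passed (0.0274%), all of them lower in adults. Rfx3 differed by 0.47 ± 0.13 (adjusted p = 0.156), Trpc6 by 0.43 ± 0.15 (adjusted p = 0.271) and Prox1 by 0.11 ± 0.14 (adjusted p = 0.822). Of the 4 genes 3 had an unadjusted p under 0.05, which 10.6% of all probes had. Their median was 0.45, beside 0.00427 over all probes.

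The call in cannabis mice turned on how the arrays were divided and on single arrays. With arrays 4 and 5 as a block, Rfx3 rose by 0.42 ± 0.07 and passed (adjusted p = 0.0362), as the 1 probe called higher (0.00548%), while Trpc6 (0.37 ± 0.08, adjusted p = 0.0604) and C1ql2 (0.56 ± 0.11, adjusted p = 0.0537) did not. With the order of deposit as a block, in 3 sets of 6 arrays, the rises of Rfx3 (0.41, adjusted p = 0.0286), C1ql2 (0.58, adjusted p = 0.0300) and Trpc6 (0.39, adjusted p = 0.0320) passed, among 53 probes called higher (0.29%). Within arrays 1 to 3 the differences were 0.45 for C1ql2, 0.39 for Rfx3 and 0.30 for Trpc6, and within arrays 4 and 5, where 1 P28 array stood against 2 adult arrays, 0.79, 0.49 and 0.54. Leaving out P28 cannabis array 1 brought C1ql2 past the threshold (0.58, adjusted p = 0.0360), as did leaving out adult vehicle array 1 (0.56, adjusted p = 0.0453), and none of the 4 genes passed without any one of the other 16 arrays. A background correction by normexp put Trpc6 at 0.82 and Rfx3 at 0.73, and C1ql2 at 0.58, without a call (adjusted p = 0.212, 0.127 and 0.0532 for Trpc6, Rfx3 and C1ql2). The difference between the age changes of cannabis and vehicle mice was the change tested above, in which no gene passed.

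**Figure D3:**
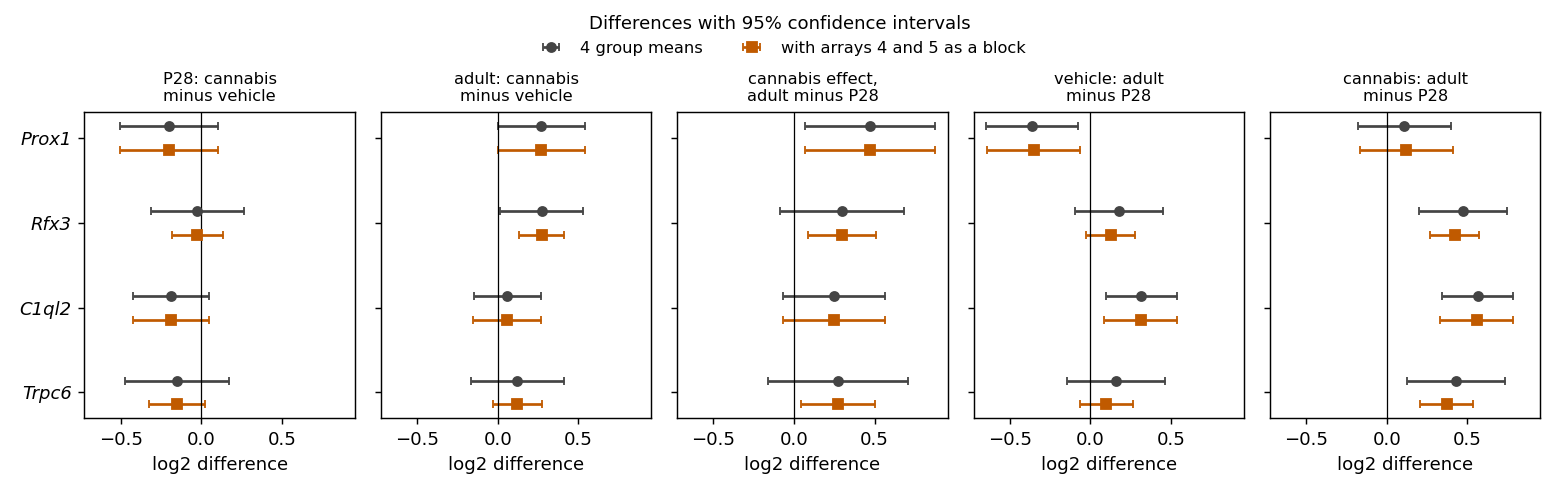
Log2 differences with 95% confidence intervals (horizontal axes) of Prox1, Rfx3, C1ql2 and Trpc6 in the 5 comparisons, from the fit of 4 group means (circles) and with arrays 4 and 5 as a block (squares). The block shortens the intervals of Rfx3 and Trpc6 and leaves those of Prox1 and C1ql2 nearly as they were.

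Other cell markers differed between P28 and adult mice, a comparison in which age and the history of tests cannot be told apart. In vehicle mice oligodendrocyte markers, 7 of 8 measured, were lower in adults in 7 of 7 genes, 5 of them called (median -1.12, list level 10.42 to 11.19 by array in adults against 11.89 to 12.25 at P28), among them Mag at -1.54 ± 0.23 and Mog at -1.45 ± 0.22 (adjusted p = 0.00633 for both by limma). Immature neuron markers lay lower in 8 of 8, with Marcksl1 (-1.40 ± 0.26, adjusted p = 0.0155) and Igfbpl1 (-0.76 ± 0.15, adjusted p = 0.0196) called (median -0.55, level 7.79 to 7.98 against 8.35 to 8.54). CA1 markers lay lower in 5 of 5, with Man1a called (-0.31 ± 0.07, adjusted p = 0.0432). In cannabis mice the oligodendrocyte and immature neuron lists lay lower in 7 of 7 and 7 of 8 genes (medians -0.90 and -0.25), with 0 called. Choroid plexus markers lay lower in adult than in P28 cannabis mice in 10 of 10 genes (median -0.92, level 7.27 to 7.47 against 7.56 to 9.33, 0 called). Ependymal markers lay higher in adult cannabis mice in 1 of 4 genes (median -0.43) and neocortex markers in 4 of 5 (0.10). Microglial markers did in 4 of 6 (0.11) and endothelial markers in 5 of 6 (0.08), with 0 called. In the median the oligodendrocyte, immature neuron and choroid plexus lists differed between P28 and adult mice in the opposite direction from C1ql2, Rfx3 and Trpc6. The part of any of these lists in the values of those genes was not tested.

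Other genes enriched in granule neurons were read beside the 4. Of 16 such genes 11 were measured, and 0 were called in any of the 5 comparisons. Calb1, the calbindin of mature granule neurons, has 1 probe, which did not pass the background filter, so its RNA level was not measured here. In cannabis mice 10 of the 11 lay higher in adults (51.8% of all probes did), with a median of 0.23. Slc30a3, the transporter that loads zinc into mossy fibre vesicles, differed by 0.39 ± 0.14 (adjusted p = 0.323) and Pdyn, the dynorphin precursor, by 0.35 ± 0.15 (adjusted p = 0.402). Dgat2 was the 1 gene below 0, at -0.14 ± 0.10. In vehicle mice 9 of the 11 lay higher in adults (median 0.14), and in adults 8 of 11 lay higher with cannabis (median 0.09), led in p by Sema5a, a semaphorin (0.23 ± 0.10, unadjusted p = 0.0271, adjusted p = 0.9998). At P28 4 of the 11 lay higher with cannabis, with a median of -0.008 beside -0.17 for the 4 measured genes. The vehicle and cannabis age comparisons share no arrays, but each shares a group with the cannabis comparisons. The mean level over the 11 genes was 8.86 and 8.84 in P28 vehicle and cannabis mice and 8.96 and 9.04 in the adults.

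Among transcription factors of the granule lineage, 5 of 8 were measured and 0 called. Neurod2, a bHLH factor of maturing neurons, came nearest, higher in adult than P28 vehicle mice by 0.44 ± 0.11 (adjusted p = 0.0552), and it differed by 0.21 ± 0.11 in cannabis mice. Neurod1 differed by 0.004 ± 0.13 and -0.05 ± 0.13 in those comparisons, and Bcl11b by 0.07 ± 0.11 and 0.18 ± 0.11. Of the RFX family and its partner Foxj1, 4 of 6 were measured and 0 called. Rfx2, a relative of Rfx3 in ciliary transcription, lay at -0.18 ± 0.10 with cannabis in adults, where Rfx3 lay at 0.27 ± 0.12. Rfx1, Rfx4 and Foxj1 lay at -0.03 ± 0.09, -0.02 ± 0.07 and 0.04 ± 0.05 there.

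The relatives and partners of the other members were not called either. Of the TRPC channels 3 of 6 were measured (Trpc1, Trpc4 and Trpc7), and in cannabis mice they differed between adults and P28 by 0.07 ± 0.10, 0.05 ± 0.15 and -0.08 ± 0.12. C1ql3, which forms complexes with C1ql2 at mossy fibre synapses, differed by 0.18 ± 0.08 there (adjusted p = 0.459). The kainate receptor subunits Grik2 and Grik4 differed by 0.14 ± 0.11 and 0.01 ± 0.07, and Nrxn3, a neurexin to which C1QL proteins bind, by -0.12 ± 0.07. Of enzymes acting on tryptophan and kynurenine 3 of 10 were measured, and of desmosome and plakin genes 5 of 9, with medians between -0.09 and 0.03 in the 5 comparisons and 0 called. Ido1 and Ido2, the other enzymes that start the kynurenine pathway, did not pass the background filter, and neither did Tdo2.

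**Figure D4:**
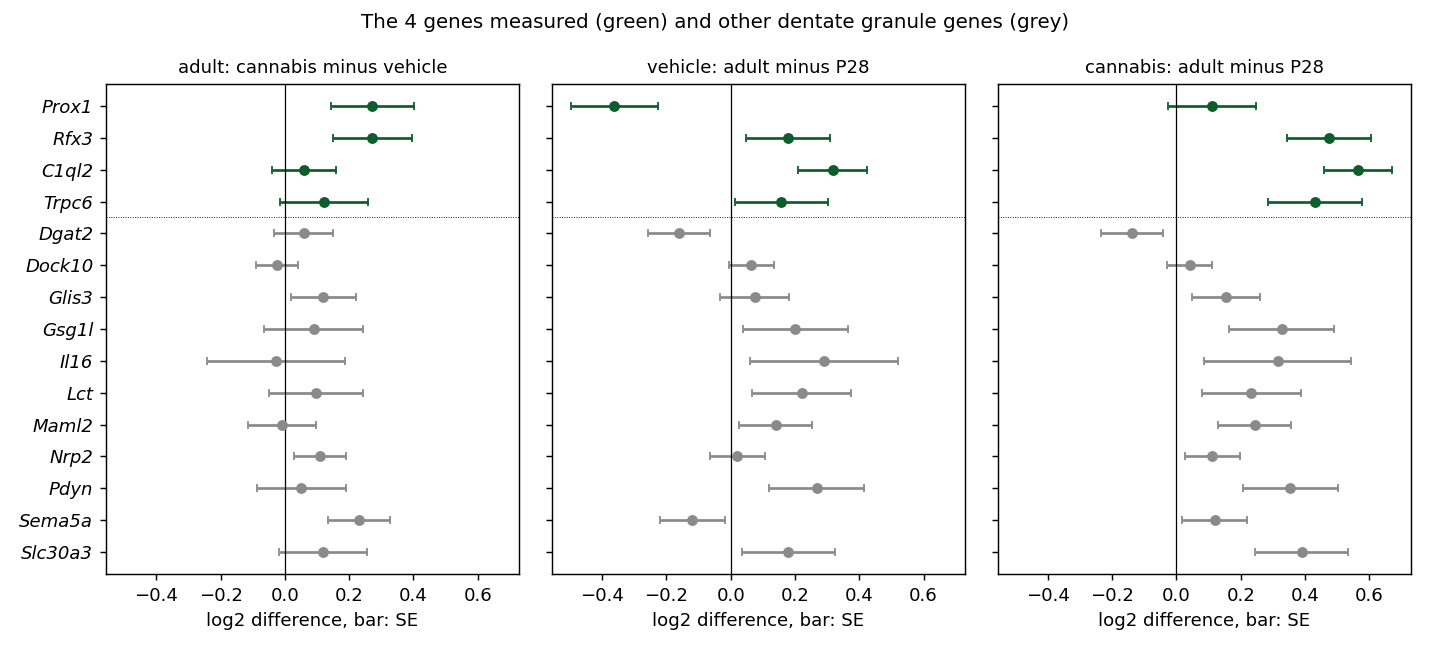
Log2 differences with their SE (horizontal axes) of the 4 measured genes (green) and of 11 other genes enriched in granule neurons (grey) in 3 comparisons. In cannabis mice 14 of the 15 genes lie right of 0, and none of the points passed the threshold.

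The mean of the 4 genes on each array is given without a test, because the genes were chosen with earlier results of these data known. It was 8.89 ± 0.07 (SD, n = 4) in P28 vehicle, 8.75 ± 0.05 (n = 4) in P28 cannabis, 8.96 ± 0.13 (n = 5) in adult vehicle and 9.14 ± 0.19 (n = 5) in adult cannabis mice. The P28 cannabis arrays lay at 8.71 to 8.82 and the P28 vehicle arrays at 8.82 to 8.99. The adult groups overlap widely, at 8.84 to 9.16 and 8.90 to 9.38.

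The 4 genes did not vary as a unit within groups. Deviations from the group means are given below as r over the 12 arrays numbered 1 to 3 and the 6 numbered 4 and 5, which share their normalization and whatever sets those parts apart. Prox1 and Trpc6 ran against each other in both parts (r = -0.707 and -0.608). Prox1 and Rfx3 ran together (r = 0.598 and 0.376), as did Rfx3 and C1ql2 (r = 0.485 and 0.726) and Prox1 and C1ql2 (r = 0.462 and 0.483). Rfx3 and Trpc6 correlated at 0.676 over the 18 arrays but at -0.266 and -0.204 within the parts. Trpc6 and C1ql2 had r of -0.361 and 0.183.

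The genes that varied most like each member were taken from 10437 measured genes, by the highest r of such deviations over the 18 arrays. For Prox1 they were Ptpro, a receptor tyrosine phosphatase (r = 0.904), Plxnd1, a semaphorin receptor (r = 0.890), and Snx4 (r = 0.877), and within both parts of the arrays r was at least 0.862. For C1ql2 they were Cygb, or cytoglobin (r = 0.892), Zfp131 (r = 0.866) and Fbxo41 (r = 0.861), with r of at least 0.816 in both parts. For Trpc6 they were Nefm, the medium neurofilament (r = 0.940), Clip1 (r = 0.939) and Pik3ca (r = 0.922), with r of 0.632 to 0.980 within the parts. For Rfx3 they were Mex3a (r = 0.897), Ppp1r16b (r = 0.884) and Pantr1 (r = 0.881). Within arrays 1 to 3 their r with Rfx3 was 0.708, 0.594 and 0.462. Within arrays 4 and 5 it was 0.657, -0.154 and 0.779. Each of these lies below the r over the 18 arrays. No gene that varied most like a member was another member.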

How the data were processed

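Total RNA was labelled as biotinylated cRNA and hybridised to Illumina mouse bead arrays, per the labels' protocols. The values used are the log2 intensities that the authors deposited. Every array holds the same distribution and a peak of unexpressed probes at 6.77, so the values were normalized between arrays but not background-subtracted. Per the submitters' processing notes Partek was used. Its version and steps, and the rest of what the authors did, are not stated in the labels or headers. In other tables of the series 72 per-sample columns are named by slide position, match no label and were not used. Gene symbols came from the platform annotation (34885 probes with 1 symbol, 18 with several, 10378 unnamed here).

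Kept probes exceeded 6.98, the peak plus 3 SD of its lower side (SD 0.0702), on at least 4 of 18 arrays. limma 3.58.1 (R 4.3.3) fitted 4 group means over all arrays, with 5 contrasts and moderated 2-sided tests. P-values were adjusted by Benjamini-Hochberg over 18249 probes, with a threshold of 0.05. The fit had 14 residual and 3.93 prior degrees of freedom. It was tested on simulated data with independent noise, which lacked the division of arrays 4 and 5 and so cannot speak to it. Confidence intervals are at 95%. The 6 genes and the 20 gene lists were chosen with earlier results of these data known, and lists are given by counts and medians with no set test. The text names every probe of the 6 genes, the 3 most alike genes for each measured one, and list genes that were called, had the smallest p or belong to a member's family. Calb1, Dgat2, Ido1 and Ido2 fall outside this rule and were named after their values were seen.

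Same-numbered vehicle and cannabis arrays deviated together at P28 (r of 0.196, 0.339, 0.383 and 0.534, all above 0.1). They may be pairs, though the labels name none. Differently numbered arrays were not compared, so these r cannot tell pairs from the division of arrays 4 and 5. The values printed are from the fit without the replicate block, which changed no call of the 4 genes at P28 (Prox1 -0.20 ± 0.13 and C1ql2 -0.19 ± 0.11 with it, adjusted p = 0.9999 for both). In adults r ran from -0.151 to 0.498 and between ages from -0.0842 to 0.641, and there the numbers were taken only to name samples. Alternatives were other filters, priors, array weights and background correction, blocks for replicate number, arrays 4 and 5 or order of deposit, probe averages, the groups compared alone, a fold change of 1.2 as well, and each array left out.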

Additional observations from a re-analysis of the deposited data

Results flagged for a closer look

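In P28 cannabis mice the Trpc6 probe was at 7.33 on array 4 while the other 3 arrays lay at 7.10 to 7.12, a gap of 0.883 of the range of the group, more than the limit Dixon's test sets for 4 samples. Chance flags about 1 in 20 groups, and this was 1 of 36 groups of probe values tested. Array 4 is the array of this group that belongs to the numbers 4 and 5, in which Trpc6 was higher by 0.39 over all groups, and the P28 vehicle array numbered 4 was likewise the highest of its group, at 7.57.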

How the results depend on the processing

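Of the member differences recomputed under the alternatives, 598 kept their direction and their side of the threshold, 10 passed in addition and 8 changed sign. Those that changed sign were Rfx3 at P28 (-0.02 in the fit of all arrays, and 0.0141 with array weights, 0.0036 within arrays 1 to 3, 0.079 without P28 vehicle array 4, 0.0099 and 0.027 without P28 cannabis arrays 1 and 3), Prox1 at P28 (-0.20, and 0.0031 within arrays 4 and 5) and C1ql2 in adults (0.06, and -0.027 within arrays 1 to 3, -0.0068 without adult vehicle array 5). With each array left out in turn these ranged from -0.099 to 0.079 for Rfx3 and from -0.0068 to 0.132 for C1ql2. The cause was not tested.

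In adult against P28 cannabis mice 0 of the 4 genes were called, and 1 was called with probes above background on all 18 arrays (C1ql2, adjusted p = 0.0488), 1 with an intensity trend and robust prior (C1ql2, 0.0499), 1 with arrays 4 and 5 as a block, 3 with the order of deposit as a block, and 0 to 1 with an array left out. With the replicate block 2 were called (Rfx3 0.43, adjusted p = 0.0248, and C1ql2 0.58, 0.0372). No label says whether the numbers pair arrays across ages. The replicate block changed no other call of a member. Over all probes that comparison gave 5 calls, and 0 with no filter, with array weights, with only the groups compared or within arrays 1 to 3, 20 with the filter on all arrays, 12 with the trend, 53 with the replicate block, 8 with arrays 4 and 5 as a block, 32 within arrays 4 and 5, 141 by order of deposit, 15 with normexp and 0 to 102 with an array left out. The vehicle age comparison gave 195, and 99 with no filter, 850 with array weights, 375 with only the groups compared, 359 with the replicate block, 419 with arrays 4 and 5 as a block, 4 within arrays 1 to 3, 0 within arrays 4 and 5, 554 by order of deposit and 28 to 317 with an array left out. Within arrays 4 and 5, where the fit has 2 residual degrees of freedom, 16 probes were called at P28, 1 in adults and 12 in the interaction, where the fit of all arrays called 0. Leaving out an array gave 0 to 11 at P28.

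The mean level of the 4 genes was 8.37, 8.18, 8.49 and 8.74 (P28 vehicle, P28 cannabis, adult vehicle, adult cannabis) with normexp, 8.41, 8.32, 8.48 and 8.59 with the probes of a gene averaged, and 8.99 and 8.82 at P28 in array 4 alone. Leaving out an array kept it at 8.85 to 8.91, 8.73 to 8.76, 8.91 to 8.99 and 9.08 to 9.20. Signal over background limits Trpc6 and Rfx3 most, whose differences grew by over 1.5 times with normexp, with no call gained: Trpc6 in all 5 comparisons, and Rfx3 at P28 and between the ages under vehicle (0.29) and under cannabis (0.73).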
